A study of Mus musculus with 12 samples.

Results

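The interaction of vincristine (VCR) and RCM1 was measured for each gene as the log2 change of the combination minus the log2 change of VCR alone minus that of RCM1 alone, each against Control. It was chosen by the titles of the samples, which put all 12 of the 12 tumors of the series into 4 groups of 3, and no measured value entered that choice. A value of 0 means that the log2 changes of both drugs added up in the combination. A value above 0 is called above the sum here and a value below 0 below the sum. The contrast thus sets the Control and combination tumors on one side and the VCR and RCM1 tumors on the other.

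All tumors grew from Rd76-9 cells, a murine line of embryonal rhabdomyosarcoma (RMS), injected into the flanks of wild-type C57/Bl6J mice of 8 to 12 weeks, and were dissected at day 16. Control mice (tumors m1, m2 and m3) received saline and empty nanoparticles by the study's methods, although 1 of their labels also names RCM1 nanoparticles. VCR mice (m4, m5 and m6) received 0.25 mg/kg VCR every 7 days from day 7. RCM1 mice (m7, m8 and m9) received 8 µg RCM1 per injection every other day in nanoparticles carrying folic acid (RCM1-NPFA). Combination mice (m10, m11 and m12) received VCR at 0.25 mg/kg and RCM1-NPFA at 8 µg per injection. The model is a single cell line under the skin of mice with an immune system, and each library is 1 dissected tumor with the host tissue in it. P-values therefore measure the spread between tumors of 1 experiment.

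VCR binds tubulin and blocks the assembly of the mitotic spindle, so that dividing cells arrest. RCM1 is a small molecule that takes the transcription factor FOXM1 out of the nucleus, and FOXM1 drives the genes of the G2 and M phases of the cell cycle. Both drugs thus reach mitosis by different routes. RMS cells resemble arrested muscle precursors, and tumors of the flank lie next to skeletal muscle, fat and skin.

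The estimated counts added up to between 29342195 and 32108055 per tumor, and 17602 of 38898 genes had enough counts to be tested. The muscle regulators that define RMS cells were low in the Control tumors: Myod1 had 0.031, 0 and 0 CPM (counts scaled to the normalised library size), Myog had 0.062, 0 and 0.034 CPM, and Des, which encodes desmin, had 10.03, 7.76 and 11.4 CPM. Of 16 keratinocyte genes, 4 had enough counts to be tested. The 4 Y-linked genes added up to between 0.53 and 1.30 CPM in m1, m2, m5, m7 and m10 and to between 16.2 and 26.02 CPM in the other 7 tumors, so each group held tumors of both kinds. RNA of adult muscle separated m5 and m9 from the other tumors. The 26 tested adult sarcomere genes added up to 11060 CPM in m5 and 16910 CPM in m9, against 253 to 342 CPM in the Control tumors, and results that rest on these tumors are given with and without them.

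No gene was called in the interaction. With edgeR's quasi-likelihood test, 0 of 17602 genes (0.0%) had an adjusted p under 0.1, and the smallest adjusted p was 0.293. At an unadjusted p under 0.05 there were 2437 genes, 1159 above the sum (6.58% of genes tested) and 1278 below it (7.26%). The DESeq2 Wald test called 461 genes at an adjusted p under 0.1, 196 above (1.11%) and 265 below (1.51%), and limma-voom called 0, with 2073 at an unadjusted p under 0.05. The DESeq2 number rested on single tumors. It ran from 51 without m5 to 1292 without m3, stayed within 1.5 times of 461 without m1 (410) or m8 (508), and was 125 without m2, 101 without m4, 1133 without m6, 753 without m7, 156 without m9, 195 without m10, 239 without m11, 170 without m12 and 42 without both m5 and m9. Over all genes the median interaction was -0.01, the 5th percentile was -0.99 and the 95th was 0.87, and 48.7% of the estimates were above 0. The median half-width of the 95% interval was 0.488. The whole interval lay between -1 and 1 for 62.5% of all genes, but for 2.64% of those under 1 CPM. For most genes under 1 CPM an interaction of 1 in size could thus not be excluded at this depth and spread. Their median half-width was 1.33, so for many of them an estimate of 1 would leave 0 inside the interval.

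Among the genes picked by a small interaction p, nearly all had a combination less than the sum. Of the 2437 genes at an unadjusted p under 0.05, the estimates of both single drugs had the same sign in 2423. That was 99.4%, against 78.3% of all genes tested. In all 2423 the combination was less than the sum, against 73.6% of all genes tested. For 1818 of them the combination was nearer to Control than either drug alone (74.6% of the 2437, against 30.4% of all genes tested). For 366 it lay between the drugs (15.0% against 24.1%), and for 2 it was beyond both (0.08% against 7.41%). For 237 it lay on the other side of Control (9.7% against 11.7%). None of the 2437 was more than the sum, against 830 of all 17602 genes (4.71%). Such a pattern is favoured by the selection and the arithmetic. The genes were picked by the interaction, which each single-drug group enters with a minus sign and Control with a plus sign. The Control tumors enter both single-drug changes with a minus sign, so opposite signs of these values are no evidence on their own. How far the pattern goes beyond this was not tested. A count that needs no fit gave the Control and combination tumors all above the 6 single-drug tumors in 47 genes (0.267%) and all below them in 24 genes (0.136%). Together these 71 genes became 85 (without m1) to 192 (without m7) when 1 tumor was left out, since fewer tumors then had to separate.

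The gene classes fell on both sides of the sum. Muscle, endothelial, matrix, tubulin and respiratory chain genes had interactions mostly below 0, while interferon-response genes had them above 0. The values for 33 gene lists are plotted gene by gene. In the text a list is given by its count of members above and below the sum and its median, beside 48.7% of estimates above 0 and a median of -0.01 over all genes, and no list was tested.

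**Figure D1:**
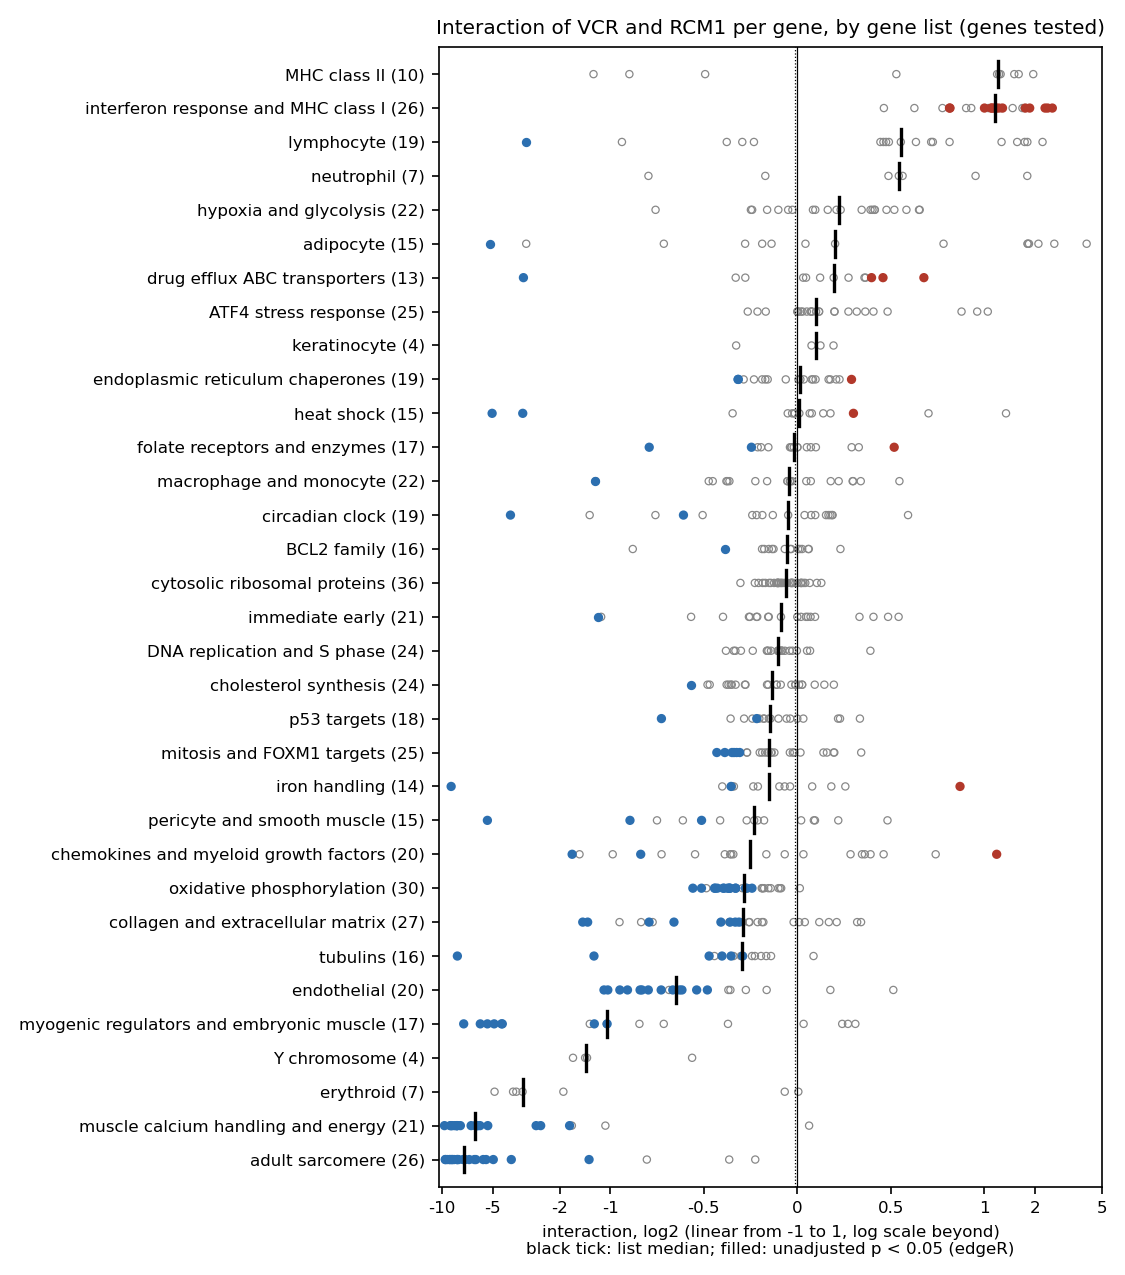
Interaction on the log2 scale (horizontal axis, linear from -1 to 1 and logarithmic beyond) of every tested gene in 33 lists (vertical axis, with the number tested); black ticks are list medians, filled points have an unadjusted p under 0.05 in edgeR, and the dotted line is the median of all genes. The muscle lists lie farthest to the left, with medians of -7.38 and -6.35, and all 26 interferon and MHC class I genes lie to the right of 0.

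Adult muscle genes were the class farthest below the sum. The summed sarcomere genes were 342, 253 and 292 CPM in Control tumors, 3719, 11060 and 1846 CPM after VCR, 392, 491 and 16910 CPM after RCM1-NPFA, and 2344, 4453 and 688 CPM in the combination. Every treated tumor was above every Control tumor, and the RCM1 group was high through m9 alone. All 26 tested sarcomere genes were below the sum, 23 of them at an unadjusted p under 0.05 (background 7.26%) and 18 in DESeq2 (background 1.51%), and the median interaction was -7.38. The median log2 changes against Control were 6.26 after VCR, 6.20 after RCM1-NPFA and 4.99 in the combination. For Myh4, the myosin heavy chain of the fastest fibres, the tumors had 22.6, 0 and 0 CPM in Control, 645, 2641 and 301 CPM after VCR, 1.42, 10.98 and 4898 CPM after RCM1-NPFA, and 545, 1229 and 61.4 CPM in the combination. Added log2 changes would put Myh4 at 258000 CPM in the combination, far above its highest measured tumor.

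The same held for genes of calcium handling and energy supply in muscle. Of 21 tested, 20 were below the sum, 18 at an unadjusted p under 0.05 and 14 in DESeq2 (background 7.26% and 1.51%), with a median of -6.35. Atp2a1, the calcium pump of fast fibres, had an interaction of -8.41 (standard error 2.65, edgeR adjusted p = 0.293). Mb, which encodes myoglobin, had 0.617, 0 and 0 CPM in Control and 9.52, 26.6 and 12.7 CPM after VCR. After RCM1-NPFA Mb had 1.29, 4.60 and 40.1 CPM and in the combination 6.21, 5.47 and 3.81 CPM, and its interaction was -7.79 (standard error 1.72, edgeR adjusted p = 0.293). Actn2, the alpha-actinin of the Z-disc, had 0.648, 0.370 and 0.067 CPM in Control, 18.6, 49.8 and 18.4 CPM after VCR, 3.05, 3.86 and 37.5 CPM after RCM1-NPFA, and 10.3, 13.3 and 5.28 CPM in the combination. Its 3 groups of treated tumors were all above Control, and its interaction of -6.91 (standard error 1.39) had an adjusted p of 0.293 in edgeR and 0.0017 in DESeq2. Csrp3, a muscle LIM protein, had 0.062, 0 and 0 CPM in the Control tumors, too few counts for a fold change.

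The muscle values rested on m5 and m9, and those of genes near 0 in Control also on m1. The median interaction of the sarcomere list was -3.04 without m9, -1.90 without both tumors and -1.01 with summed sarcomere RNA as a term in the fit. For the calcium and energy list it was -2.21 without m9, -0.92 without both and -0.27 with the term. The erythroid list then lay lower than both muscle lists, at -4.16 without both tumors and -4.265 with the term. Myh4 changed sign, to 0.66 without both tumors and to 1.71 with the term. Mb, with counts in m1 alone of the Control tumors, went from -5.41 without m9 to -13.54 without m1, and Atp2a1 from -2.92 without m9 to -11.23 without m1. Fewer muscle cells in a tumor and less muscle RNA per cell cannot be told apart in these bulk samples.

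Genes of the muscle type also gave the lowest values of several other lists. Hjv in the iron list (-8.84), Hspb1 in the heat shock list (-5.05) and Slc2a4 in the adipocyte list (-5.21) had their highest level in m9. Hspb1, a small heat shock protein abundant in muscle, had 68.0 CPM in m9 against 4.01 and 2.39 CPM in the other RCM1 tumors. Slc2a4, the insulin-responsive glucose transporter, changed sign with summed sarcomere RNA in the fit (0.50). Of the genes of muscle precursors and embryonic muscle, 13 of 17 tested were below the sum, 8 at an unadjusted p under 0.05 (background 7.26%), with a median of -1.05. Myl4, a myosin light chain of embryonic muscle, had 3.73, 3.29 and 3.53 CPM in Control, 7.04, 6.39 and 5.72 CPM after VCR, 5.33, 5.71 and 5.48 CPM after RCM1-NPFA, and 4.42, 4.53 and 5.57 CPM in the combination. All 9 treated tumors were above Control, m5 and m9 did not stand apart, and the interaction was -1.05 (standard error 0.21, edgeR adjusted p = 0.293, DESeq2 adjusted p = 0.0071), with -1.16 to -0.96 when each tumor was left out. Cdh15, the cadherin of muscle precursors and the most abundant member, had an interaction of -0.37 (standard error 0.17).

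Endothelial genes were below the sum as a class. Their sum was 427, 308 and 370 CPM in Control, 475, 594 and 444 CPM after VCR, 456, 428 and 520 CPM after RCM1-NPFA, and 439, 462 and 464 CPM in the combination. Every treated tumor was above every Control tumor, and the combination tumors lay within the range of the single drugs. Of 20 genes tested, 18 were below the sum, 13 at an unadjusted p under 0.05 (background 7.26%) and 7 in DESeq2 (background 1.51%), and the median was -0.65. Sox18, a transcription factor of vessel growth, had 10.7, 6.92 and 9.28 CPM in Control, 14.8, 19.8 and 14.5 CPM after VCR, 10.5, 13.3 and 14.0 CPM after RCM1-NPFA, and 10.9, 12.5 and 12.3 CPM in the combination. Sox18 was highest in all 3 VCR tumors, and its interaction was -0.95 (standard error 0.26, edgeR adjusted p = 0.293, DESeq2 adjusted p = 0.0448). Cdh5, the cadherin of vessel junctions, had an interaction of -0.36 (standard error 0.19, edgeR adjusted p = 0.424). Leaving out each tumor in turn gave list medians of -0.74 to -0.50, and the median was -0.42 without m5 and m9 and -0.44 with summed sarcomere RNA in the fit. The tumors rich in muscle RNA were also the highest endothelial tumors of their groups, 594 CPM in m5 and 520 CPM in m9.

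Other genes of the vessel wall and stroma lay mostly on the same side. Of 15 pericyte and smooth muscle genes, 10 were below the sum, with a median of -0.23. The lowest was Des (-5.38), which is also in the list of muscle precursors and embryonic muscle. Rgs5, a regulator of G-protein signalling that marks pericytes, had 32.2, 29.4 and 27.4 CPM in Control, 37.4, 53.6 and 44.3 CPM after VCR, 47.0, 46.7 and 50.1 CPM after RCM1-NPFA, and 39.5, 38.3 and 39.8 CPM in the combination. The combination tumors of Rgs5 were above Control and below all RCM1 tumors, and its interaction was -0.89 (standard error 0.16, edgeR adjusted p = 0.293, DESeq2 adjusted p = 0.0010). Of 27 collagen and matrix genes, 20 were below the sum, 8 at an unadjusted p under 0.05 (background 7.26%), with a median of -0.29. Their summed CPM overlapped between groups. It was 12240 to 15820 in Control, 13890 to 14460 after VCR, 13820 to 18610 after RCM1-NPFA and 13410 to 15450 in the combination. Fn1, the most abundant member, had the opposite sign, 0.34 (standard error 0.24, edgeR adjusted p = 0.54). Dcn, which encodes the matrix proteoglycan decorin, had an interaction of -1.36 (standard error 0.41), and its 3 VCR tumors (23.5, 37.7 and 24.5 CPM) were above all other tumors.

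Tmem204 and Epas1, which are active in endothelium, were among the 10 genes of smallest p below the sum. Epas1, a transcription factor of the oxygen response, had 17.0, 16.3 and 14.3 CPM in Control, 25.6, 30.9 and 21.3 CPM after VCR, 22.3, 25.7 and 29.3 CPM after RCM1-NPFA, and 22.2, 21.7 and 21.0 CPM in the combination. The sum of the log2 changes would give 42.1 CPM, and the interaction was -0.96 (standard error 0.20, edgeR adjusted p = 0.293, DESeq2 adjusted p = 0.0056). Tmem204 had 3.67, 3.09 and 3.50 CPM in Control, 5.93, 6.88 and 5.30 CPM after VCR, 5.07, 4.79 and 5.004 CPM after RCM1-NPFA, and 4.05, 4.40 and 4.04 CPM in the combination. Its Control and combination tumors were all below its 6 single-drug tumors, and the interaction was -1.07 (standard error 0.20, edgeR adjusted p = 0.293, DESeq2 adjusted p = 0.0064). Fhl1, a LIM protein of muscle and stroma on chromosome X from 56731209 to 56793346, had the smallest p below the sum. It had 30.2, 33.9 and 39.0 CPM in Control, 79.1, 96.3 and 78.6 CPM after VCR, 44.4, 57.2 and 85.0 CPM after RCM1-NPFA, and 50, 48.4 and 47.4 CPM in the combination. Its interaction was -1.66 (standard error 0.27, edgeR adjusted p = 0.293, DESeq2 adjusted p = 1.2e-05), and -1.37 without m9. The other genes of the 10 were Mgat3, which adds a bisecting sugar to N-glycans (-0.75), Plac9a, which has a near-identical copy that can share its reads (-1.41), and Stmnd1 (-1.86).

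**Figure D2:**
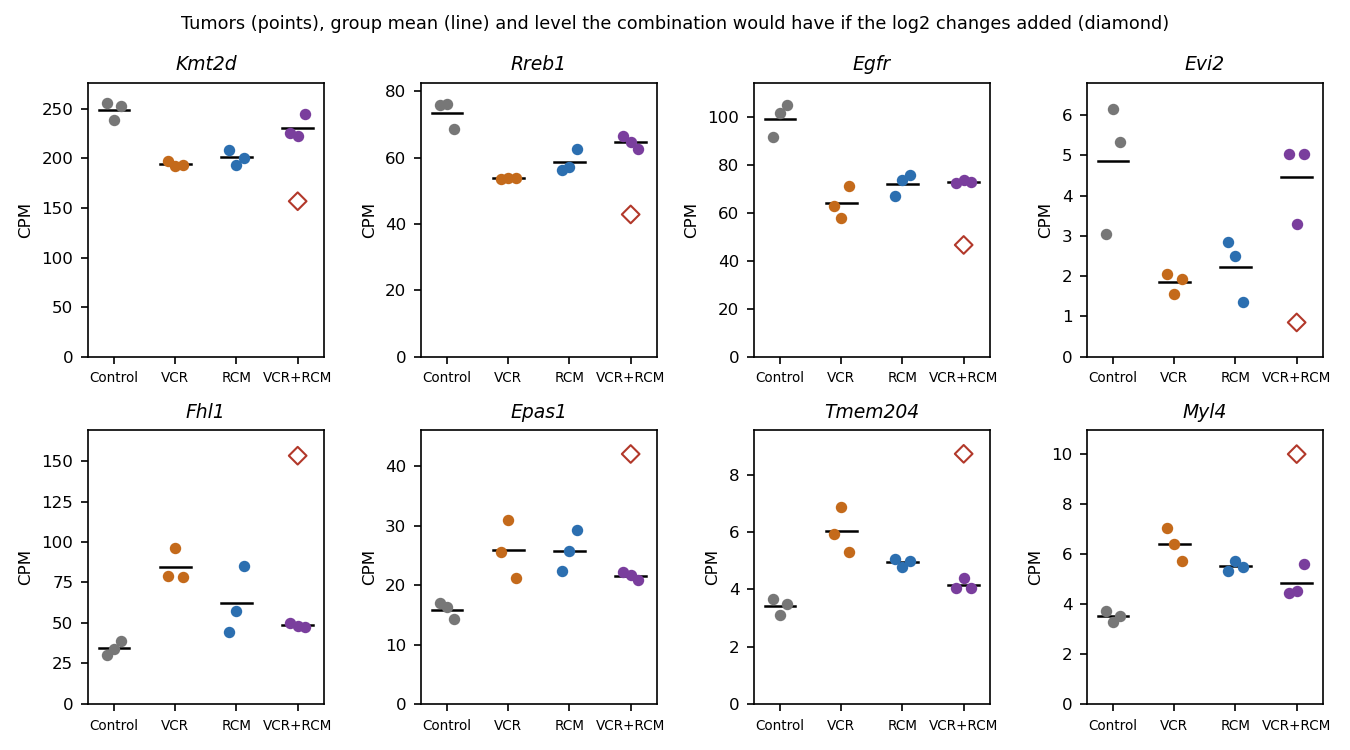
CPM values (vertical axes, from 0) of 8 of the 20 genes with the smallest interaction p in the 3 tumors of each group (points), with the group mean (line) and the level at which the log2 changes of both drugs would add up in the combination (diamond). For Kmt2d, Rreb1, Egfr and Evi2 the combination tumors lie above the diamond, and for Fhl1, Epas1, Tmem204 and Myl4 below it.

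The 10 genes of smallest p above the sum included Kmt2d, a histone methyltransferase, Setd5, a chromatin protein with a SET domain, Srcap, a remodeller that exchanges histone variants, Srrm2, a protein of nuclear speckles, Syne1, which anchors the nucleus to the cytoskeleton, and Eif2ak4, the kinase GCN2 that senses missing amino acids. Kmt2d, on chromosome 15 of GRCm38.p6 from 98831669 to 98874077, had 256, 239 and 253 CPM in Control, 197, 192 and 194 CPM after VCR, 209, 193 and 201 CPM after RCM1-NPFA, and 226, 222 and 245 CPM in the combination. All Control and combination tumors were above all single-drug tumors. The log2 changes of Kmt2d were -0.36 after VCR, -0.31 after RCM1-NPFA and -0.11 in the combination, which gave an interaction of 0.56 (standard error 0.09, edgeR adjusted p = 0.293, DESeq2 adjusted p = 2.7e-07).

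Rreb1, a zinc finger factor downstream of Ras on chromosome 13 from 37778382 to 37952005, had 76.0, 76.1 and 68.5 CPM in Control, 53.5, 53.9 and 53.8 CPM after VCR, 56.1, 57.3 and 62.5 CPM after RCM1-NPFA, and 66.6, 64.7 and 62.6 CPM in the combination. Its groups were separated in the same way, if only just between m12 and m9, and its interaction of 0.59 (standard error 0.09) had an unadjusted p of 3.4e-05, the smallest above the sum. Egfr, the epidermal growth factor receptor, had 91.8, 102 and 105 CPM in Control, 63.1, 58.1 and 71.4 CPM after VCR, 66.9, 73.9 and 76.0 CPM after RCM1-NPFA, and 72.7, 73.8 and 72.8 CPM in the combination. For Egfr the combination tumors lay inside the range of the RCM1 tumors, and the interaction was 0.65 (standard error 0.12). Evi2 had 3.06, 6.15 and 5.34 CPM in Control, 2.06, 1.56 and 1.92 CPM after VCR, 2.85, 2.49 and 1.35 CPM after RCM1-NPFA, and 5.02, 3.30 and 5.03 CPM in the combination, with an interaction of 2.39 (standard error 0.45). The remaining values were 0.61 for Setd5, 0.60 for Prune2, 0.46 for Srcap, 0.61 for Syne1, 0.55 for Srrm2 and 0.52 for Eif2ak4, each with an edgeR adjusted p of 0.293. Srrm2 alone changed sign in an alternative, to -0.15 with offsets for effective transcript length.

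Transcript length moved with the interaction. In the quintile of genes with the longest transcripts (median effective length 6345 bases) the median interaction was 0.22, and 18.2% of genes were above the sum at an unadjusted p under 0.05. In the shortest quintile (881 bases) the median was -0.15, with 2.81% above and 11.9% below. The longest quintile starts at 4660 bases. It held all of the 10 genes of smallest p above the sum except Evi2 (3792 bases). Among them, Kmt2d, at 19920 bases, and Prune2, at 12550 bases, are far longer than the median gene of 2644 bases. By GC content the median went from 0.11 in the lowest quintile to -0.16 in the highest. With splines of length and GC content as offsets, 1956 genes had an unadjusted p under 0.05, 833 above and 1123 below. Of the named genes, Atp5b alone changed sign with these splines (0.017). How much of the interaction of a single gene goes with its length was not tested.

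**Figure D3:**
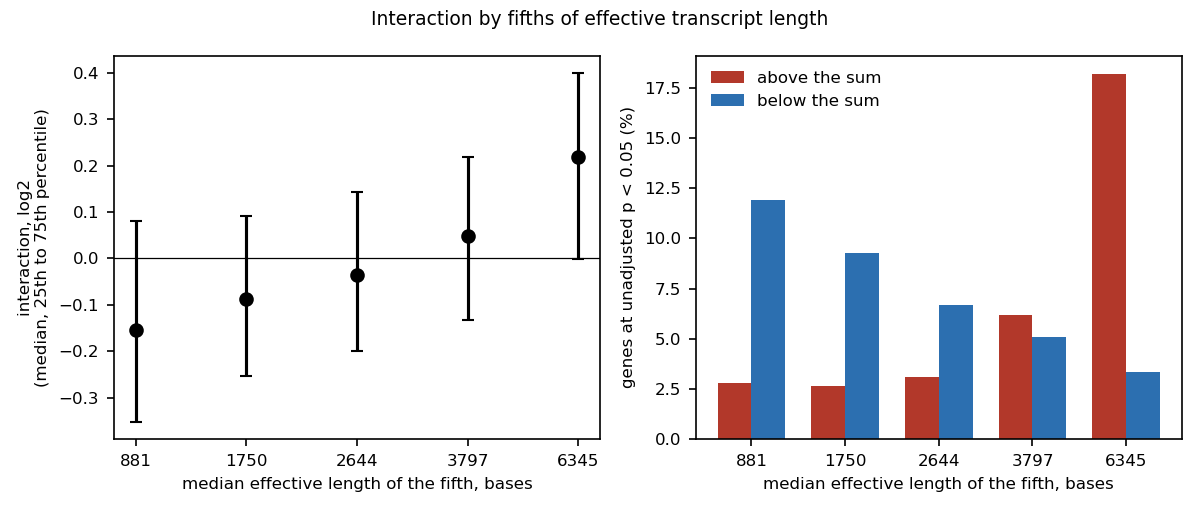
Interaction by quintiles of effective transcript length, each labelled by its median in bases: left, median interaction with the 25th and 75th percentiles (log2); right, percent of genes at an unadjusted p under 0.05 above and below the sum. The median goes from -0.15 in the shortest quintile to 0.22 in the longest.

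Interferon-response and MHC class I genes were the 1 list of the 33 with every tested member above the sum. Of its 26 genes, 15 had an unadjusted p under 0.05 (background 6.58%), 2 were called by DESeq2 (background 1.11%), and the median was 1.16. Interferons signal through STAT factors, and some of these bind the interferon-stimulated response element, here searched as GAAANNGAAA on both strands (TTTCNNTTTC on the other). The RefSeq promoters of GRCm38.p6 used here cover 250 bases before to 50 after the start. Of 21 members with such a promoter, 10 held the motif (47.6%). The share was 3.99% of all 27025 genes with a promoter and 3.85% of the 13517 tested ones. The list was composed of interferon-response genes, so this share describes the list and not these tumors. The match describes the letters and shows no binding. The 100-base stretches of the 3 members of smallest p that held a match are printed to show where the motif lies, and they were chosen after their values were seen. They are written on the strand of the gene, with the matches in capitals, from chr5:120907526-120907625 (Oas1a, minus strand), chr10:128270248-128270347 (Stat2, plus strand) and chr3:142559944-142560043 (Gbp3, plus strand).
Oas1a: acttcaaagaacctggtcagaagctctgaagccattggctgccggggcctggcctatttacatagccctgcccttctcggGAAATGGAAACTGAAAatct
Stat2: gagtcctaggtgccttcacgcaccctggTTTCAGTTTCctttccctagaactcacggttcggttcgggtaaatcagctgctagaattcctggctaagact
Gbp3: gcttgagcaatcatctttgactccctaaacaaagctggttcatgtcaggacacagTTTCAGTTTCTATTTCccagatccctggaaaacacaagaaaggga

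Oas1a, an antiviral synthetase, had 21.7, 19.2 and 12.2 CPM in Control, 11.7, 16.0 and 15.8 CPM after VCR, 16.4, 13.7 and 13.9 CPM after RCM1-NPFA, and 20.04, 20.4 and 40.9 CPM in the combination. Its 3 combination tumors were above all single-drug tumors, while the single-drug tumors lay inside the Control range, m4 excepted. The interaction of Oas1a was 1.18 (standard error 0.40, edgeR adjusted p = 0.293, DESeq2 adjusted p = 0.0932). Stat2, a transcription factor of interferon signalling, had 86.1, 51.3 and 47.3 CPM in Control, 52.5, 44.9 and 49.5 CPM after VCR, 51.8, 38.7 and 41.7 CPM after RCM1-NPFA, and 46.4, 73.6 and 114 CPM in the combination. High Stat2 was thus a matter of m1, m11 and m12, and m10 lay among the single-drug tumors. Stat2 had an interaction of 1.15 (standard error 0.41, edgeR adjusted p = 0.297). Gbp3, a guanylate-binding protein, had 70.8, 26.6 and 17.4 CPM in Control, 26.5, 17.3 and 27.3 CPM after VCR, 20.4, 10.2 and 24.2 CPM after RCM1-NPFA, and 16.7, 60.8 and 89.8 CPM in the combination. Its interaction was 2.30 (standard error 0.85, edgeR adjusted p = 0.299). Ifit2, the member of smallest p, had an interaction of 0.82 (standard error 0.27), and H2-D1, a class I heavy chain and the most abundant member, had 1.27 (standard error 0.79). H2-D1 had 0.51 and Gbp3 1.505 without m1, and Oas1a had 0.75 and Stat2 0.77 without m12. Reads of H2 genes can be shared with near-identical copies, so the H2 values are uncertain.

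The summed interferon and class I genes were 6536, 2899 and 1899 CPM in Control, 3422, 2204 and 3210 CPM after VCR, 2819, 1531 and 2332 CPM after RCM1-NPFA, and 1830, 4431 and 6588 CPM in the combination. High sums were found in m1, m11 and m12, m10 lay among the lowest tumors, and all 4 groups overlapped. The median interaction stayed above 0 with each tumor left out, from 0.77 without m12 to 1.47 without m7. It was 1.09 without m5 and m9, 0.89 with summed sarcomere RNA in the fit and 1.25 with splines of length and GC content.

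MHC class II genes were highest in the same tumors. The summed class II genes were 2924 CPM in m1, 1372 CPM in m11 and 1983 CPM in m12, against 180 to 1116 CPM in the other tumors. Of 10 class II genes, 7 were above the sum and 0 passed an unadjusted p under 0.05, with a median of 1.21, and the median was -0.72 without m1. Cd74, the invariant chain and the most abundant member, had an interaction of 1.25 (standard error 1.25, edgeR adjusted p = 0.683), and Ciita, the activator of class II genes, had 1.96 (standard error 1.07). Without m1, Cd74 had -0.83 and Ciita 0.27. Cd74 changed sign in limma-voom, to -0.094, and the median of the list was 0.034 there. Of 19 lymphocyte genes, 14 were above the sum, with a median of 0.55 that became -0.13 without m1. Their sum was between 15.2 and 69.0 CPM, highest in m4, followed by m1 (66.03 CPM), m12 (58.8 CPM) and m11 (49.9 CPM), so lymphocyte RNA was scarce in all tumors. Cd8a, a chain of the T cell coreceptor, had an interaction of 1.74 (standard error 1.30, edgeR adjusted p = 0.566) and -0.03 without m1. Cd79a, of the B cell receptor, had 10.7 CPM in m4 and between 0.36 and 1.05 CPM in the other tumors, and its interaction of -3.18 became -0.29 without m4. Macrophage genes, the most abundant leukocyte list with 3127 to 4417 CPM, had a median of -0.05 with 8 of 22 above the sum, and 0.08 without m10.

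**Figure D4:**
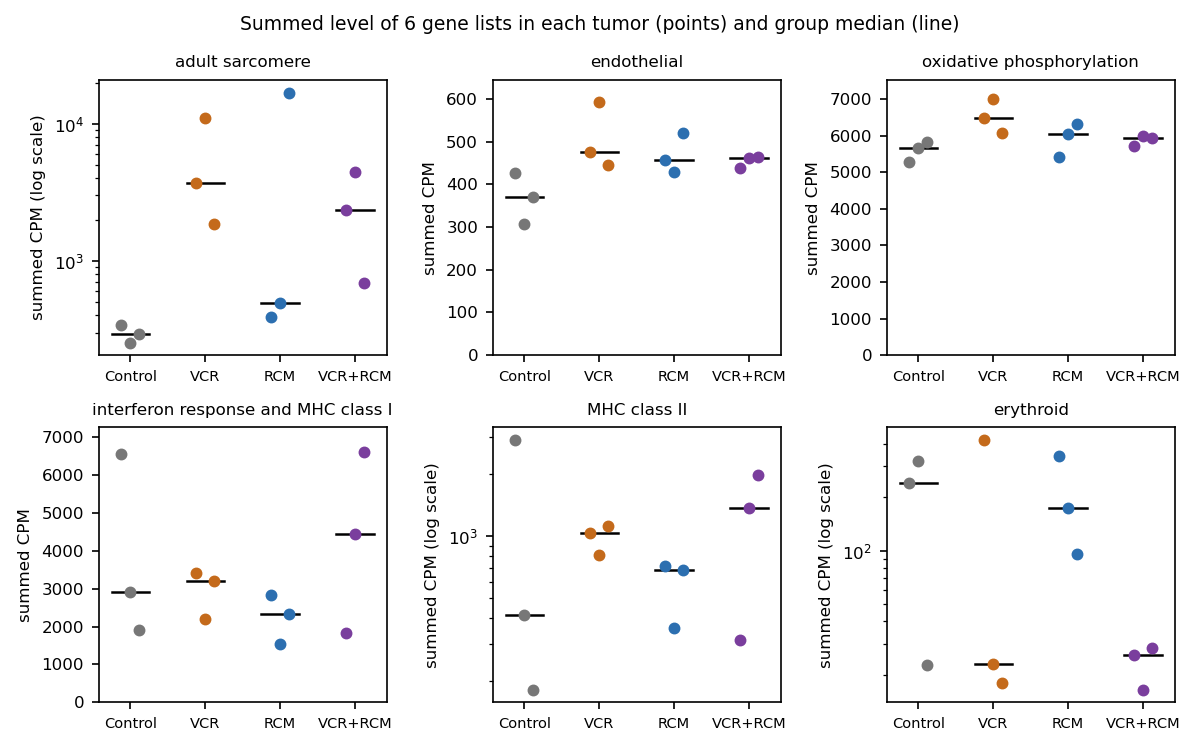
Summed CPM of 6 lists in each of the 12 tumors (points, 3 in each group) with the group median (line); the adult sarcomere, MHC class II and erythroid axes are logarithmic and the others start at 0. Sarcomere RNA peaks in 1 VCR tumor at 11060 and 1 RCM1 tumor at 16910, and interferon RNA in 1 Control tumor at 6536 and 1 combination tumor at 6588.

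Genes of the cell division that both drugs target had small interactions. Of 25 mitosis genes and FOXM1 targets, 19 were below the sum, 6 at an unadjusted p under 0.05 (background 7.26%), and the median was -0.15, with -0.24 to -0.07 when each tumor was left out. Foxm1 itself had 139, 168 and 143 CPM in Control, 167, 172 and 168 CPM after VCR, 148, 179 and 167 CPM after RCM1-NPFA, and 172, 171 and 151 CPM in the combination. The groups overlapped, and the interaction of Foxm1 was -0.17 (standard error 0.13, edgeR adjusted p = 0.580). Plk1, a mitotic kinase, had 104, 113 and 104 CPM in Control, 125, 151 and 135 CPM after VCR, 118, 133 and 126 CPM after RCM1-NPFA, and 125, 133 and 125 CPM in the combination. Its treated tumors were all above Control by a like amount, so that the combination lay 0.34 below the sum (standard error 0.11, edgeR adjusted p = 0.293). Top2a, the topoisomerase of condensing chromosomes, had the opposite sign, 0.34 (standard error 0.18, edgeR adjusted p = 0.427). Of 24 replication genes, 21 were below the sum and 0 passed an unadjusted p under 0.05, with a median of -0.10 that became 0.0052 without m8.

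Tubulins, the target of VCR, were below the sum in 15 of 16 genes, 6 at an unadjusted p under 0.05 (background 7.26%), with a median of -0.30. The lowest member stood far below this median, at -8.12. Tubb6, a beta-tubulin, had 200, 214 and 208 CPM in Control, 249, 284 and 247 CPM after VCR, 220, 251 and 230 CPM after RCM1-NPFA, and 221, 238 and 229 CPM in the combination, with an interaction of -0.35 (standard error 0.11, edgeR adjusted p = 0.293, DESeq2 adjusted p = 0.0843). All treated tumors of Tubb6 were above Control. Tubb5, the most abundant member, had -0.19 (standard error 0.15, edgeR adjusted p = 0.573), and tubulin paralogs share reads. Leaving out single tumors gave list medians of -0.39 to -0.23, and the median was -0.11 with splines of length and GC content.

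Nuclear genes of oxidative phosphorylation were below the sum in 29 of 30 cases, 16 at an unadjusted p under 0.05 (background 7.26%) and 1 in DESeq2 (background 1.51%), with a median of -0.29. Their sum was 5282, 5649 and 5821 CPM in Control, 6473, 7005 and 6078 CPM after VCR, 5402, 6041 and 6318 CPM after RCM1-NPFA, and 5711, 6000 and 5939 CPM in the combination. The VCR tumors were all above Control and above the combination. Cox5a, a subunit of cytochrome c oxidase, had 94.0, 108 and 96.9 CPM in Control, 136, 164 and 126 CPM after VCR, 105, 121 and 143 CPM after RCM1-NPFA, and 118, 123 and 117 CPM in the combination, with an interaction of -0.56 (standard error 0.17, edgeR adjusted p = 0.293, DESeq2 adjusted p = 0.0871). Atp5b, of the ATP synthase and the most abundant member, had -0.10 (standard error 0.10, edgeR adjusted p = 0.695). Without m5 and m9 the median of the list was -0.18, with summed sarcomere RNA it was -0.19, and with splines of length and GC content it was -0.17, so it kept its sign at a lower size. Cytosolic ribosomal proteins had a median of -0.06, with 27 of 36 below the sum and 0 at an unadjusted p under 0.05. With splines of length and GC content their median was 0.11, with 32 of 36 above the sum.

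Genes of the ATF4 and hypoxia responses and of drug efflux were mostly a little above the sum, while other stress genes were not. Of 25 genes of the ATF4 stress response, 22 were above it, 0 at an unadjusted p under 0.05, with a median of 0.10 that became -0.05 without m3. Aldh1l2, a mitochondrial folate enzyme and the ATF4 member of smallest p, had an interaction of 1.05 (standard error 0.51, edgeR adjusted p = 0.383). Chac1, a glutathione-degrading enzyme of the same pathway, had -0.26 (standard error 0.52, edgeR adjusted p = 0.851) and 0.06 without m1. Of 22 hypoxia and glycolysis genes, 15 were above the sum, 0 at an unadjusted p under 0.05, with a median of 0.22. Pdk1, which slows the entry of pyruvate into mitochondria, had 0.58 (standard error 0.30, edgeR adjusted p = 0.409). Of 13 tested efflux transporters of the ABC family, 10 were above the sum, 3 at an unadjusted p under 0.05 (background 6.58%), and 3 were below it, 1 at an unadjusted p under 0.05 (background 7.26%), with a median of 0.20. The lowest was Abcb4, a phospholipid transporter named after its value was seen, with -3.29 (standard error 1.28, edgeR adjusted p = 0.312), and it was highest in m9 (13.4 CPM). The interaction of Abcb4 was -1.16 without m9 and changed sign with summed sarcomere RNA in the fit (0.11). Abcb1b, which pumps VCR out of cells, had 55.9, 57.8 and 43.8 CPM in Control, 41.8, 37.6 and 46.7 CPM after VCR, 43.0, 41.8 and 48.2 CPM after RCM1-NPFA, and 48.5, 52.9 and 44.8 CPM in the combination. Its groups overlapped, and its interaction was 0.46 (standard error 0.17, edgeR adjusted p = 0.297). Abcc1, the most abundant member, had 0.40 (standard error 0.15, edgeR adjusted p = 0.305). The efflux list had a median effective length of 5429 bases, which lies in the longest quintile of all genes. In that quintile the median interaction was 0.22, and 18.2% of genes were above the sum at an unadjusted p under 0.05. The efflux values were thus near those of long genes, and the part of length was not tested.

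Folate receptors and enzymes, of interest because the nanoparticles carry folic acid, had a median of -0.02, with 8 of 17 above the sum, and Folr1 was among the genes with too few counts. Mtr, methionine synthase, had 0.52 (standard error 0.19, edgeR adjusted p = 0.297). Of 18 tested p53 targets, 13 were below the sum, with a median of -0.15. Phlda3, a p53 target that restrains AKT, had 28.6, 21.0 and 33.2 CPM in Control, 38.2, 46.1 and 36.4 CPM after VCR, 39.3, 36.9 and 42.7 CPM after RCM1-NPFA, and 35.2, 35.2 and 34.3 CPM in the combination. Its Control and combination tumors were all below its single-drug tumors, and its interaction was -0.73 (standard error 0.21, edgeR adjusted p = 0.293, DESeq2 adjusted p = 0.0579). Of 24 cholesterol synthesis genes, 18 were below the sum, with a median of -0.13 that became 0.08 without m8, and Ebp, a sterol isomerase, had -0.57 (standard error 0.13, edgeR adjusted p = 0.293, DESeq2 adjusted p = 0.0218). Heat shock genes had a median of 0.01, with 8 of 15 above the sum. Endoplasmic reticulum chaperones, the BCL2 family, immediate early genes and clock genes had medians of 0.02, -0.05, -0.09 and -0.05, and each of these medians, like those of the heat shock and folate lists, changed sign without at least 1 tumor.

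**Figure D5:**
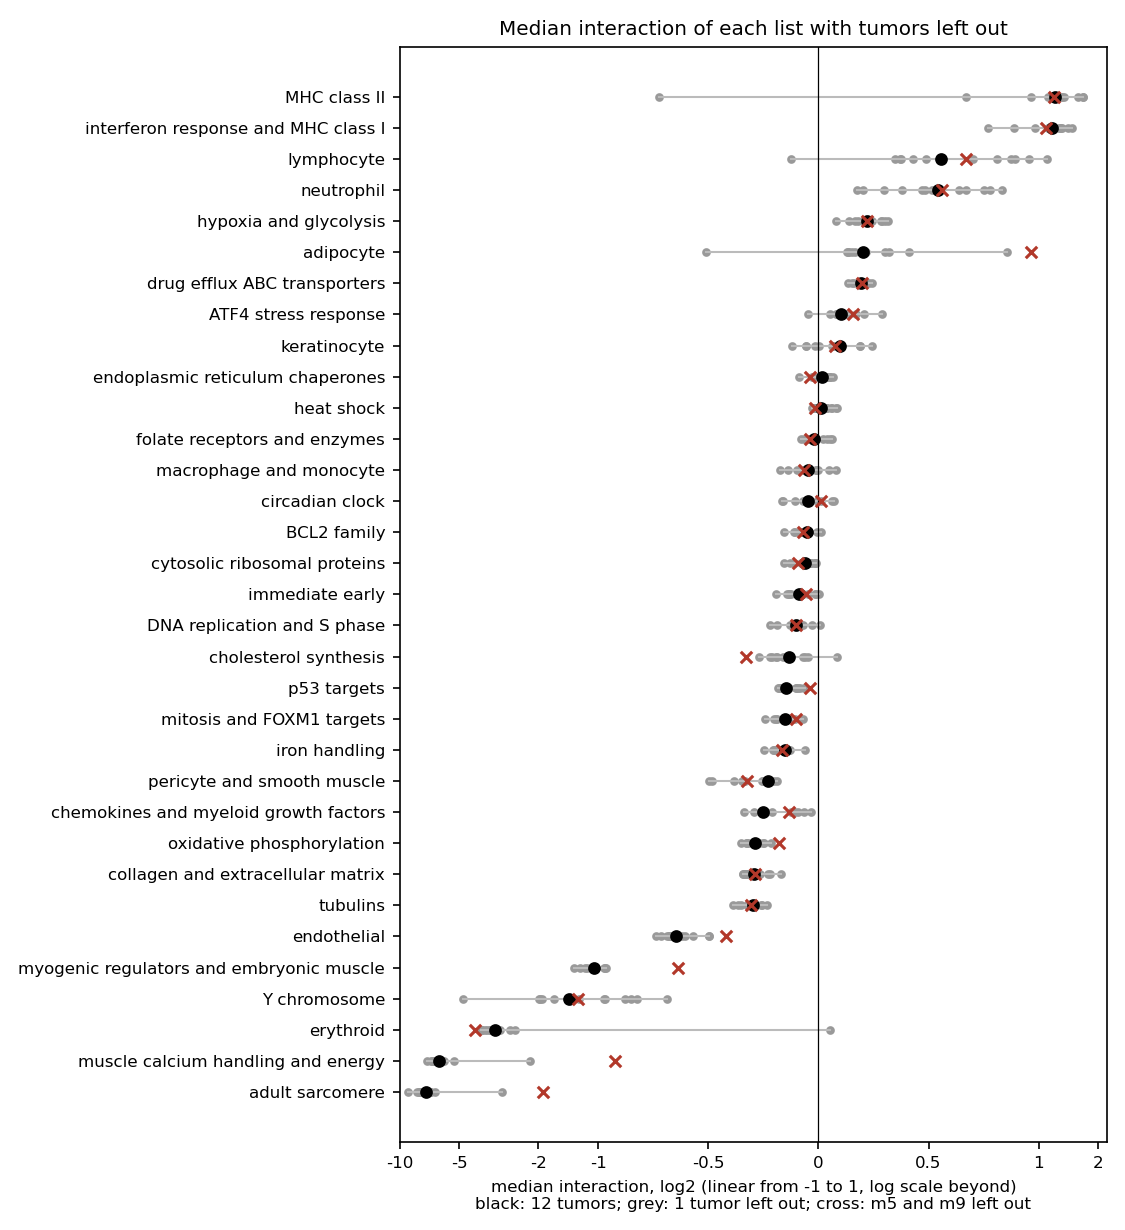
Median interaction (log2, linear from -1 to 1 and logarithmic beyond) of each list with all 12 tumors (black), with each tumor left out in turn (grey, joined by a line) and without m5 and m9 (crosses). The muscle lists move towards 0 without m5 and m9, the erythroid list without 1 tumor, and the interferon list stays between 0.77 and 1.47.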

How the data were processed

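The authors prepared poly-A libraries with a stranded kit that they call non-stranded, so reads of overlapping genes may not be told apart. They assigned reads to GRCm38 transcripts with kallisto (version not given in the sources used here) and deposited estimated counts per transcript, without normalization, beside effective lengths. The deposited TPM values, which the authors' tool scales for length and library size, gave no expression value here. They served only as weights when the effective lengths of transcripts were averaged per gene. Each of the 120299 transcripts had a RefSeq gene in GRCm38.p6, and the counts were summed into 38898 genes and rounded.

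Genes passing filterByExpr (minimum count 10) were fitted in edgeR 4.0.16 (R 4.3.3) with TMM, 4 groups in 1 fit and the quasi-likelihood F test of VCR+RCM minus VCR minus RCM plus Control. P-values were adjusted by Benjamini-Hochberg over 17602 genes, with a threshold of 0.1. Alternatives were DESeq2 1.42.0, the study's tool, limma-voom 3.58.1, other scalings, filters and thresholds, and leaving out tumors. Splines of length and GC content and DESeq2 fits without tumors were added after seeing the data. Lists are described by counts and medians of fitted values. The scripts were tested on simulated data.

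Named genes are the 10 of smallest p in each direction with a mean of at least 1 CPM and no predicted genes, the most abundant and smallest-p member of each list, Chac1 and Foxm1. Myod1, Myog and Des were named as markers, and Oas1a, Stat2, Gbp3 and Abcb4 after their values were seen. Members and lists were chosen with earlier results of these data known. No batch is given. A few items are not reported here. Python 3.11.15 was used for summaries and figures.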

Additional observations from a re-analysis of the deposited data

How the results depend on the processing

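With single tumors left out, 15 of 33 list medians changed sign. edgeR called 0 genes in every setting except without m7 (0 to 1 with each tumor left out), against 461 in DESeq2 and 2437 at an unadjusted p under 0.05. The DESeq2 count ran from 51 to 1292 with each tumor left out and was 42 without m5 and m9. At an unadjusted p under 0.05 there were 1196 genes with summed sarcomere RNA in the fit, 1097 without m5 and m9, and 1494 to 3293 without single tumors. The 71 separated genes became 85 to 192 without 1 tumor and 221 without m5 and m9.

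With summed sarcomere RNA in the fit, list medians became -1.01 (sarcomere), -0.27 (calcium and energy), -0.27 (myogenic), 1.47 (adipocyte), -0.12 (keratinocyte), -0.44 (endothelial) and -0.19 (oxidative phosphorylation). Without m5 and m9 in edgeR and DESeq2 they were -1.90 and -1.93 (sarcomere), -0.92 and -0.93 (calcium and energy), -0.42 and -0.41 (endothelial), -0.18 and -0.17 (oxidative phosphorylation) and -0.037 and -0.029 (p53), and -0.63 in DESeq2 for the myogenic list. With splines of length and GC content they were -0.11 (tubulins), 0.11 (ribosomal proteins) and -0.17 (oxidative phosphorylation). In limma-voom they were -3.98 (calcium and energy) and 0.034 (MHC class II), with a mean of at least 50 counts -0.094 (keratinocyte) and 0.79 (neutrophil), and with Y-linked RNA in the fit -0.48 (pericyte). With single tumors left out, medians ran from -9.04 to -3.04 (sarcomere), -7.25 to -2.21 (calcium and energy), -0.51 to 0.86 (adipocyte), -0.12 to 0.24 (keratinocyte), -0.22 to 0.0052 (replication), -0.049 to 0.29 (ATF4), -0.028 to 0.083 (heat shock), -0.17 to 0.070 (clock), -0.19 to 0.0045 (immediate early), -0.27 to 0.084 (cholesterol), -0.079 to 0.063 (folate), -0.086 to 0.068 (chaperones), -0.19 to -0.059 (p53), -0.15 to 0.013 (BCL2), -0.17 to 0.079 (macrophage), -0.13 to 1.10 (lymphocyte), 0.17 to 0.83 (neutrophil), -0.72 to 1.67 (MHC class II), -0.34 to -0.035 (chemokines), -0.50 to -0.19 (pericyte), -3.89 to 0.052 (erythroid) and -4.78 to -0.69 (Y-linked).

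Of 62 named genes, these changed sign: Srrm2 with effective length offsets (-0.15), Myh4 with the sarcomere term (1.71) and without m5 and m9 (0.66 in edgeR, 0.67 in DESeq2), Slc2a4 (0.50) and Abcb4 (0.11) with the sarcomere term, Chac1 on the linear scale of CPM (0.12), Cd74 in limma-voom (-0.094), Atp5b with splines (0.017) and Eif2s3y, a Y-linked gene, with the Y term (0.45). With each tumor left out, Chac1 ran from -0.65 to 0.057, Cd8a from -0.03 to 2.27, Cd74 from -0.83 to 1.77, Hbb-bs from -4.19 to 1.01 and Hbb-bt from -5.57 to 0.46. The causes were not tested. The median half-width of the 95% interval was 1.33 for genes under 1 CPM, where depth and spread between tumors cannot be told apart. No paired analysis was possible because no replicate number is shared between groups.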

Other observations

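Hemoglobin RNA, a measure of red blood cells in the tissue, differed widely within 3 of the groups. The 7 tested erythroid genes added up to 242, 321 and 22.7 CPM in Control, 422, 23.03 and 18.03 CPM after VCR, 343, 174 and 96.0 CPM after RCM1-NPFA, and 25.8, 16.5 and 28.4 CPM in the combination. All 3 combination tumors were thus low, as were m3, m5 and m6. The median interaction was -3.33, with 6 of 7 genes below the sum and 0 at an unadjusted p under 0.05, and it was 0.05 without m4. Hbb-bs and Hbb-bt, near-identical beta-globin genes whose reads can be shared, had interactions of -3.62 (standard error 2.07) and -4.88 (standard error 2.41). They became 1.01 and 0.46 without m4.

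Fat and neutrophil genes had medians above 0, with 0 genes above the sum at an unadjusted p under 0.05 in edgeR, and Slc2a4 alone of the adipocyte genes passed it below the sum (-5.21). Of 15 adipocyte genes, 9 were above the sum, with a median of 0.20 and a range of medians from -0.51 without m10 to 0.86 without m9. Of 7 tested neutrophil genes, 5 were above the sum, with a median of 0.54. Among 20 chemokines and myeloid growth factors, 12 were below the sum, with a median of -0.25, while Cxcl1, which attracts neutrophils, had 1.19 (standard error 0.48, edgeR adjusted p = 0.321). Cd163, a scavenger receptor of macrophages, had -1.23 (standard error 0.54, edgeR adjusted p = 0.348).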
